A study of Homo sapiens with 2 samples.

Results

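ZNF genes are the human zinc finger genes named by serial number. They were taken here as every gene symbol made of ZNF, digits and at most 1 further letter that had 200 or more counts summed over both libraries. This rule kept 165 of the 529 ZNF symbols in the deposited tables, among 9011 symbols of any kind that reached the same minimum and 24462 symbols in all. The members were thus chosen by their measured abundance, and their levels are given as a description. The symbols just inside the minimum were ZNF322 (106 counts in RT-R cells and 96 in parental cells), ZNF680 (98 and 106) and ZNF559 (83 and 122). The symbols just outside it were ZNF71 (95 counts in RT-R cells and 102 in parental cells), ZNF197 (105 and 93) and ZNF542P (129 and 69).

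The study profiled RT-R-MDA-MB-231, a radiotherapy-resistant derivative, and the parental MDA-MB-231 line, an established human triple negative breast cancer cell line. The RT-R cells had been irradiated with X-rays in 2 Gy fractions that added up to 50 Gy, and the parental cells are the line they came from. Both lines grew in RPMI medium with 10% serum and 1% penicillin and streptomycin, and the labels name no introduced gene. Total RNA of each line went into 1 library made with a QuantSeq 3' tag kit, which reads the ends of polyadenylated transcripts. The RT-R library held 10014804 counts over 17598 detected symbols, and the parental library held 9255008 counts over 16631. No difference below can be checked against replicates, since each line has 1 library, and p-values are not given. Ranges in parentheses after a fold ratio are exact 95% intervals for counting error within these libraries, and they do not cover variation between cultures. A bulk count also cannot tell a change in every cell from a change in a share of the cells. Of the receptors that a triple negative line lacks, ESR1 had 1 count in RT-R cells and 0 in parental cells, PGR had 0 in both and ERBB2, low without amplification, had 174 and 230. VIM, a mesenchymal filament gene, had 8454 counts in RT-R cells and 4310 in parental cells, and CD44 had 3129 and 2560. PTPRC, the pan-leukocyte marker, had 0 counts in both libraries, while the fibroblast gene COL1A1 had 76 and 59 and the endothelial gene PECAM1 had 50 and 223. Of the epithelial genes, CDH1 and EPCAM had 68 and 26 counts in RT-R cells against 32 and 15 in parental cells, while KRT19 and GATA3 had 2585 and 113 in RT-R cells against 3484 and 152 in parental cells.

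A C2H2 zinc finger is a short fold in which a pair of cysteines and a pair of histidines hold a zinc ion, and tandem fingers read successive bases of DNA. Many ZNF proteins join their fingers to a KRAB box, which recruits the co-repressor TRIM28 and through it the histone methyltransferase SETDB1 and HP1 proteins. KRAB zinc finger genes arose by repeated duplication, are dense in clusters on chromosome 19, and many of them silence transposable elements. Other ZNF genes have no KRAB box and act as activators, as parts of chromatin complexes, or away from DNA altogether.

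The ZNF genes were expressed at low to moderate levels in both lines, and most of them differed little between the lines. Their counts ran from 83 to 2110 in RT-R cells, with a median of 240, and from 55 to 2571 in parental cells, with a median of 199. Counts of 3' tags depend little on transcript length, so these counts can be set beside each other as transcript numbers, within the limits of how well each end is annotated. Summed over the family, RT-R cells held 57862 counts, 0.578% of the library (0.573% to 0.582%), and parental cells held 51083 counts, 0.552% (0.547% to 0.557%). After scaling of the libraries, the ratio of the sums was 1.02 (1.00 to 1.03). That ratio is the sum of opposite movements: the 5 most abundant members together were at 0.919 of the parental level (0.891 to 0.948), and the other 160 at 1.03 (1.02 to 1.05).

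Only a few members passed a 2-fold difference. A symbol was called higher or lower when its scaled ratio reached the stated fold and its interval lay on one side of 1. At 2-fold, 3 members (1.82%) were higher in RT-R cells and 1 (0.606%) was lower. Of all 9011 symbols at this minimum 3.02% were higher and 2.45% were lower, a gap of a few genes that was not tested. At 1.5-fold, 22 members (13.3%) were higher and 14 (8.48%) were lower, against 9.24% higher and 11.1% lower among all symbols. The other 129 members passed neither. The interval alone, whatever the fold, lay above 1 for 59 members (35.8%) and below 1 for 30 (18.2%), against 28.3% and 36.4% of all symbols. The median log2 ratio of RT-R over parental was 0.12 for the members, with quartiles of -0.14 and 0.38, and -0.05 for all symbols. Of the members 101 of 165 (61.2%) lay above 0, against 45.6% of all symbols. The choice of scaling moved log2 ratios by at most 0.04.

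**Figure D1:**
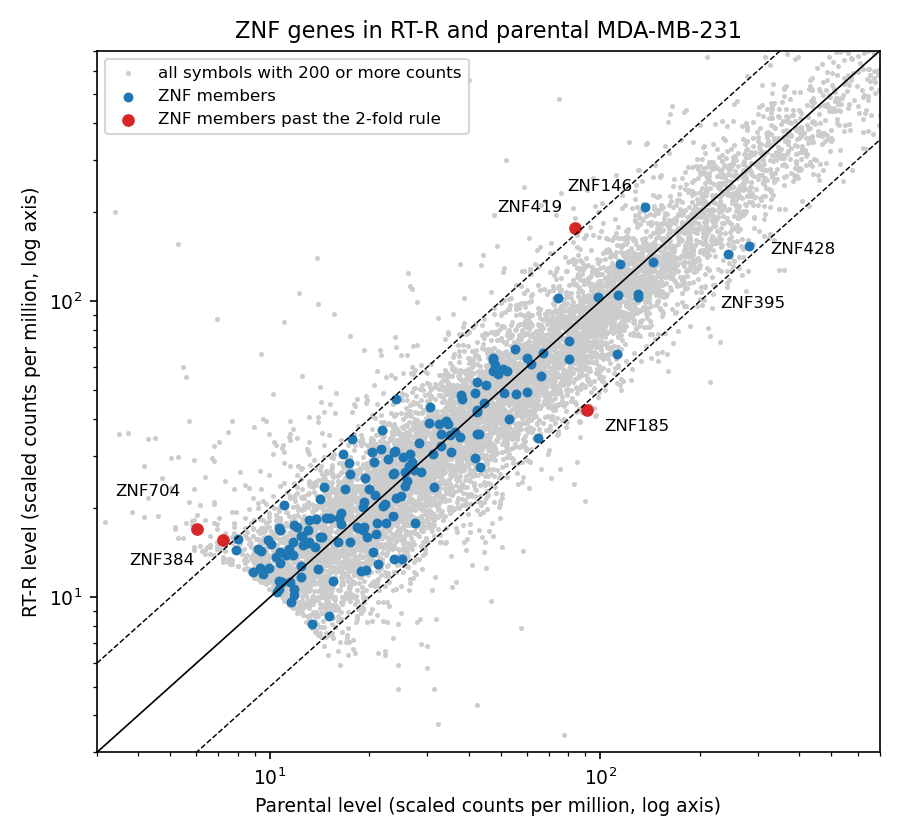
Level of each gene symbol with 200 or more counts in parental cells (horizontal axis) and RT-R cells (vertical axis), both in counts scaled by library size on log axes that stop at 3 and 700. Blue points are the 165 ZNF members and red points the 4 past the 2-fold rule; the solid line is equality and the dashed lines are 2-fold. Most blue points lie between the dashed lines, with ZNF704, ZNF384 and ZNF419 above them and ZNF185 below.

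The highest ratio belonged to ZNF704, a paralog of ZNF395 with 1 finger pattern in its protein. It had 173 counts in RT-R cells against 55 in parental cells, a ratio of 2.82 (2.07 to 3.89). ZNF384, which binds A-rich DNA and is a fusion partner in acute leukaemias, had 159 counts in RT-R cells and 66 in parental cells, a ratio of 2.16 (1.61 to 2.92). Both rest on few counts, as their wide intervals show. ZNF419, a KRAB gene of the most distal chromosome 19 cluster, was far more abundant, with 1789 counts in RT-R cells against 766 in parental cells. Its ratio was 2.09 (1.92 to 2.28). The genes around it, 15 measured ones on each side, had a median log2 ratio of 0.26, and relative to these neighbours the log2 ratio of ZNF419 was 0.81, under the 2-fold rule. These neighbours include other ZNF genes of the cluster; relative to neighbours that are not ZNF symbols, whose median was -0.15, ZNF419 was at 1.21 and kept its call.

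ZNF185 was the only member called lower at 2-fold, and it is a ZNF gene in name more than in structure. It encodes an actin-associated LIM domain protein, and no C2H2 pattern was found in its protein. It had 435 counts in RT-R cells against 832 in parental cells and was 2.13-fold lower (1.9 to 2.4). ZNF185 is X-linked, its measured neighbours had a median log2 ratio of -0.71, and relative to them its log2 ratio was -0.39. The other X-linked members, the KRAB genes ZNF674 (88 counts in RT-R cells, 138 in parental cells) and ZNF182 (125 and 172), were 1.75-fold and 1.53-fold lower. The median log2 ratio of these 3 members was -0.80, and that of the 288 measured non-ZNF symbols of the X chromosome was -0.81.

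The promoters of the members past 2-fold are shown to set their composition side by side, and those of ZNF580 and ZNF581 because these adjacent genes had ratios on opposite sides of 1. Each runs from 250 bases before to 50 after the RefSeq start on assembly GRCh38.p14, 5′ to 3′ on the strand of the gene. Capitals mark CCGGAAG, the core of ETS factor sites, and CCCGCCC, the box bound by SP and KLF factors, each on either strand. The ZNF419 promoter lies at chr19:57487500-57487799 on the plus strand, ZNF384 at chr12:6689326-6689625 on the minus strand and ZNF185 at chrX:152914182-152914481 on the plus strand. Those of ZNF580 at chr19:55640752-55641051 and ZNF581 at chr19:55643399-55643698 are both on the plus strand. ZNF704 is named only.
ZNF419: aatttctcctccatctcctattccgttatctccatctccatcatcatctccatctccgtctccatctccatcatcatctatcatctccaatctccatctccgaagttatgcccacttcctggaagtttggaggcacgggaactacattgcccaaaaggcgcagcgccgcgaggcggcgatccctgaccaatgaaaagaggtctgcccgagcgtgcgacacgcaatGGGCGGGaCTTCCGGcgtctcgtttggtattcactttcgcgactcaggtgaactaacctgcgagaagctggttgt
ZNF384: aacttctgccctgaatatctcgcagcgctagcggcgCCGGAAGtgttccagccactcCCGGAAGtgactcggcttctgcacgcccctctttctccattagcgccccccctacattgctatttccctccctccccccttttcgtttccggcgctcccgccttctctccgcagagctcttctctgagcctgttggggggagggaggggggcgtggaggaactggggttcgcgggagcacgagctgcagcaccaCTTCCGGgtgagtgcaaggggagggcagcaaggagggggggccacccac
ZNF185: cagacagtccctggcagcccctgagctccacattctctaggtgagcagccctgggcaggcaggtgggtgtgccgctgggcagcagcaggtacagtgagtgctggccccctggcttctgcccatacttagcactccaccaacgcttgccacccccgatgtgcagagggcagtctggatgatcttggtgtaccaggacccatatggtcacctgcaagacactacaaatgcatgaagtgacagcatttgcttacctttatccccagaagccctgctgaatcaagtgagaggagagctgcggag
ZNF580: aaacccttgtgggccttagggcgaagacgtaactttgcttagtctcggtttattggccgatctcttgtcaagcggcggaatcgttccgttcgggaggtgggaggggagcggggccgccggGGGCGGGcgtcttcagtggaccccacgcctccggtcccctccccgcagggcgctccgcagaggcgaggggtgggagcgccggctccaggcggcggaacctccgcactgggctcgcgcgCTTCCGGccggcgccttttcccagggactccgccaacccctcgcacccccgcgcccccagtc
ZNF581: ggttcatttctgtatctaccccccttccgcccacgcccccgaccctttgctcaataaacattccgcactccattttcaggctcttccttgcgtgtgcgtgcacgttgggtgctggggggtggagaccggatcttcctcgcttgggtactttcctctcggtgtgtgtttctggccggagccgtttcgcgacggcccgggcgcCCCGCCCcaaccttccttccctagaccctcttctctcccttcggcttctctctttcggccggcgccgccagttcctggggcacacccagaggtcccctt

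The ZNF419 promoter holds 1 match of each motif and 21 CpG dinucleotides, and the ZNF384 promoter holds 3 CCGGAAG matches and 19 CpG. The ZNF185 promoter holds neither motif and 4 CpG. ZNF580 has 1 match of each motif and 35 CpG, and ZNF581 has 1 CCCGCCC match and 23 CpG. Promoter sequences were found for 141 members, whose median was 24 CpG, against 27 for the 6936 promoters of symbols with 200 or more counts and 14 for all 27305 promoters. CCGGAAG was present in 56 member promoters (39.7%), against 21.2% of the measured and 10.7% of all promoters. CCCGCCC was present in 72 (51.1%), against 55.8% and 32.9%. The motif CCAATCA, which holds a CCAAT box and is in none of the promoters shown, was present in 19 (13.5%), against 9.05% and 7.28%. Medians by motif lay near that of all members: the median log2 ratio was 0.16 with CCGGAAG and 0.09 without it, 0.11 with CCCGCCC and 0.15 without, and 0.10 with CCAATCA and 0.13 without.

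The abundant members moved in opposite directions. ZNF428, with 1 finger pattern, had the most counts of the family, 1566 in RT-R cells against 2571 in parental cells, and was 1.83-fold lower (1.72 to 1.95). Its neighbours on chromosome 19 had a median log2 ratio of 0.13, and relative to them ZNF428 was at -1.01, past the 2-fold rule. Relative to neighbours that are not ZNF symbols it was at -0.96 and did not pass. ZNF395, a factor linked to hypoxia responses, had 1471 counts in RT-R cells and 2222 in parental cells, 1.68-fold lower (1.58 to 1.80), while its paralog ZNF704 was higher. ZNF146 consists almost entirely of fingers, 10 by the pattern used here, and it had 2110 counts in RT-R cells against 1242 in parental cells, a ratio of 1.52 (1.42 to 1.64). ZNF451, a ligase that builds SUMO chains, had 1382 and 1315 counts, and its ratio of 0.942 had an interval that included 1.

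**Figure D2:**
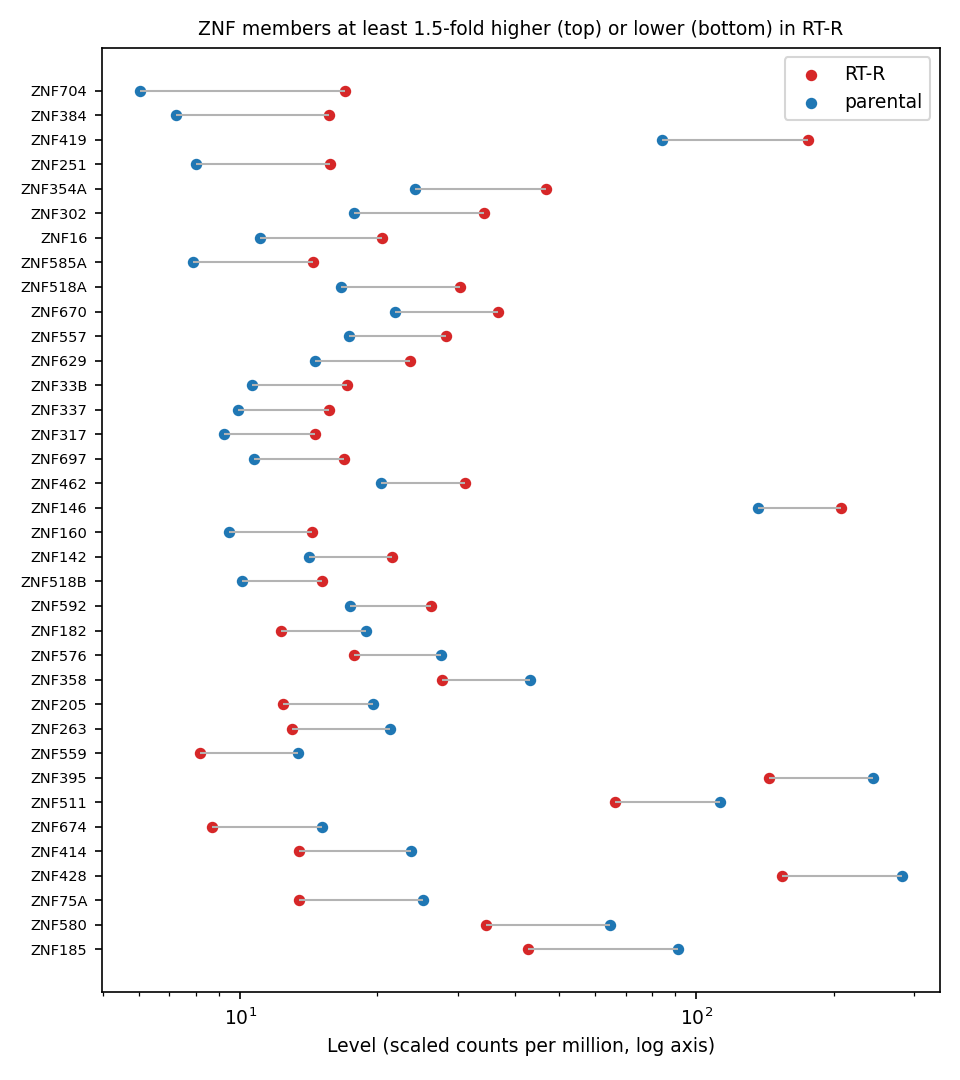
Levels of the 36 ZNF members past the 1.5-fold rule, in counts scaled by library size on a log axis, with RT-R in red and parental in blue. The 22 higher members are at the top and the 14 lower ones at the bottom; ZNF146 and ZNF419 among the higher and ZNF428 and ZNF395 among the lower are the abundant ones.

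Several members lay just under 2-fold higher. ZNF251 had 160 counts in RT-R cells and 73 in parental cells, a ratio of 1.97 (1.48 to 2.63). ZNF354A, a KRAB gene first described in kidney, had 475 and 220, a ratio of 1.94 (1.65 to 2.28), and ZNF302, also KRAB, had 349 and 162, a ratio of 1.93 (1.60 to 2.34). ZNF16 had 208 counts in RT-R cells against 101 in parental cells and ZNF585A had 147 against 72, ratios of 1.85 and 1.83. The paralogs ZNF518A (309 and 152) and ZNF518B (154 and 92) were both past the 1.5-fold rule, at 1.82 (1.5 to 2.23) and 1.5 (1.15 to 1.96). ZNF33B, the paralog of ZNF33A on chromosome 10, was also past it with 174 counts in RT-R cells and 97 in parental cells, while ZNF33A, with 644 and 432, had a ratio of 1.34 (1.18 to 1.51). On the lower side, ZNF580 (351 counts in RT-R cells, 589 in parental cells) was 1.87-fold lower (1.64 to 2.14), ZNF75A (137 and 229) 1.86-fold lower (1.5 to 2.32) and ZNF511 (675 and 1027) 1.70-fold lower (1.54 to 1.87).

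A KRAB box was found in 76 of the 163 members with a protein that could be translated from the annotation. The KRAB genes as a sum had 19477 counts in RT-R cells against 15513 in parental cells, a ratio of 1.13 (1.10 to 1.15). The 87 members without one had 37922 and 35171, a ratio of 0.967 (0.953 to 0.981). Abundant genes weigh most in these sums. The KRAB sum holds ZNF419 (1789 counts in RT-R cells, 766 in parental cells). The other sum holds ZNF428 (1566 and 2571), ZNF395 (1471 and 2222) and ZNF146 (2110 and 1242). The group medians lay closer together than the sums, at a log2 ratio of 0.20 with KRAB and 0.10 without. At 1.5-fold 11 KRAB members were higher and 6 lower, and 11 members without KRAB were higher and 8 lower. Among all symbols 9.24% were higher and 11.1% lower.

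Among KRAB genes the position in the genome went with the direction. The 41 KRAB members inside chromosome 19 clusters had a median log2 ratio of 0.23 and 33 of them lay above 0, with 5 higher and 1 lower at 1.5-fold. The 35 KRAB members elsewhere had a median of -0.08 and 15 lay above 0. Of these 35, 6 were higher and 5 lower, against 9.24% and 11.1% of all symbols. Genes without KRAB showed the reverse order. Their 12 members inside the clusters had a median of -0.10 with 4 above 0, and the 75 elsewhere had 0.12 with 48 above 0. These 12 also had a median transcript length of 2031.5 bases and a median GC content at the transcript end of 55.2%. The 75 elsewhere had 4492 bases and 38.3%. Cluster members of both kinds had a median log2 ratio of -0.02 where that GC content was 50% or more (10 genes). Those under 50% (43 genes) had 0.23. Whether transcript length or GC content accounts for the reverse order was not tested. The neighbours of the cluster KRAB members, which include other ZNF genes of the clusters, had a median log2 ratio of 0.11. Those of the KRAB members elsewhere had -0.13. Taken relative to its own neighbours, the median KRAB member was at 0.14 inside the clusters and 0.16 elsewhere, so the gap between these groups was not present on that scale. With neighbours that are not ZNF symbols as the base, the values were 0.34 and 0.18, and the cluster members were again the higher. The part of regional differences in these medians was not tested beyond those values.

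**Figure D3:**
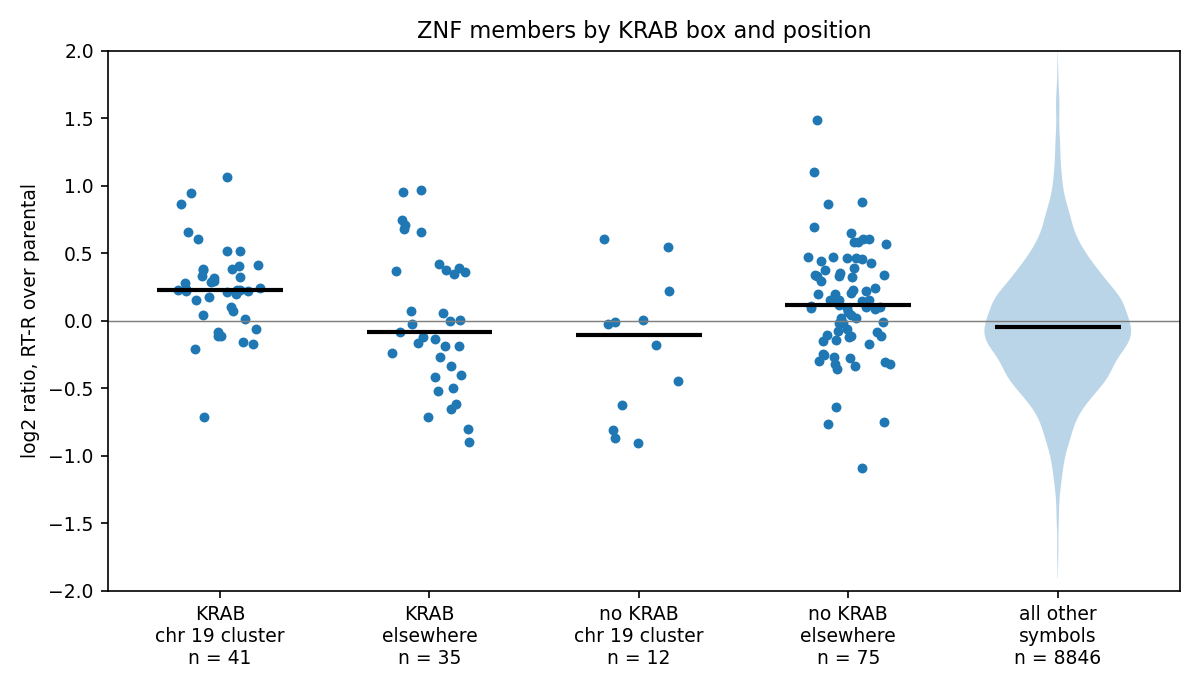
Log2 ratio of RT-R over parental for each ZNF member, one point a gene, in 4 classes by KRAB box and by position in a chromosome 19 cluster, with horizontal bars at the medians. The shape at the right shows the spread of the 8846 other symbols with 200 or more counts, cropped at -2 and 2; the KRAB cluster class has its median at 0.23 and the other symbols at -0.05.

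Chromosome 19 carried 58 of the 165 members. Their median log2 ratio was 0.22 with 41 above 0, while the 492 measured chromosome 19 symbols that are not ZNF genes had a median of -0.08 with 43.5% above 0. A cluster was a run of at least 5 ZNF genes with no gap over 500 kb, which gave 10 clusters. They held 53 members with a median of 0.22, against 0.09 for the 112 members outside, and the cluster from ZNF554 to ZNF77 held none.

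The clusters differed among themselves. In the cluster from ZNF175 to ZNF331, 7 of 8 members lay above 0 with a median of 0.26. ZNF160 was its highest member, with 146 counts in RT-R cells and 86 in parental cells. A stretch of the ZNF160 transcript end is nearly identical to a stretch of a UTP23 transcript, so its reads are uncertain. The imprinted gene ZNF331 was the lowest member of this cluster, with 207 and 201. In the distal cluster from ZNF264 to ZNF446, 9 of 11 members lay above 0 with a median of 0.29, from ZNF584 (176 counts in each line) to ZNF419. The 6 members between ZNF565 and ZNF573 had a median of 0.45, with ZNF146 highest by its interval and ZNF569 (241 counts in RT-R cells, 234 in parental cells) lowest. The single member between ZNF807P and ZNF792 was ZNF302. The 3 members between ZNF653 and ZNF791 had a median of 0.22, from ZNF700 (283 and 241) to ZNF791 (446 and 279). The 7 between ZNF101 and ZNF254 had 0.19, from ZNF714 (116 and 142) to ZNF101 (133 and 98), while ZNF430 (196 and 150) had the highest lower bound.

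The remaining clusters were mixed. Between ZNF414 and ZNF846 the 4 members had a median of -0.44: ZNF414 (137 counts in RT-R cells, 216 in parental cells) and ZNF559 were 1.76-fold and 1.64-fold lower, while ZNF317 (148 and 84) was 1.58-fold higher. ZNF414 shares a stretch of its transcript end with RNF213, so its reads are uncertain. Between ZNF628 and ZNF835 the median was -0.00, and here the neighbouring genes ZNF580 and ZNF581, next to each other in gene order, had ratios on opposite sides of 1. ZNF581 had 322 counts in RT-R cells against 198 in parental cells, a ratio of 1.46 (1.22 to 1.75), beside the lower ZNF580. Between ZNF575 and ZNF180 the adjacent genes ZNF428 and ZNF576 were both lower, ZNF576 with 181 counts in RT-R cells and 251 in parental cells. ZNF227 (302 and 230) had the highest ratio there, 1.18 (0.988 to 1.40), and ZNF226 (531 and 410) the highest lower bound, at a ratio of 1.16 (1.02 to 1.32). The cluster's median was 0.01.

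**Figure D4:**
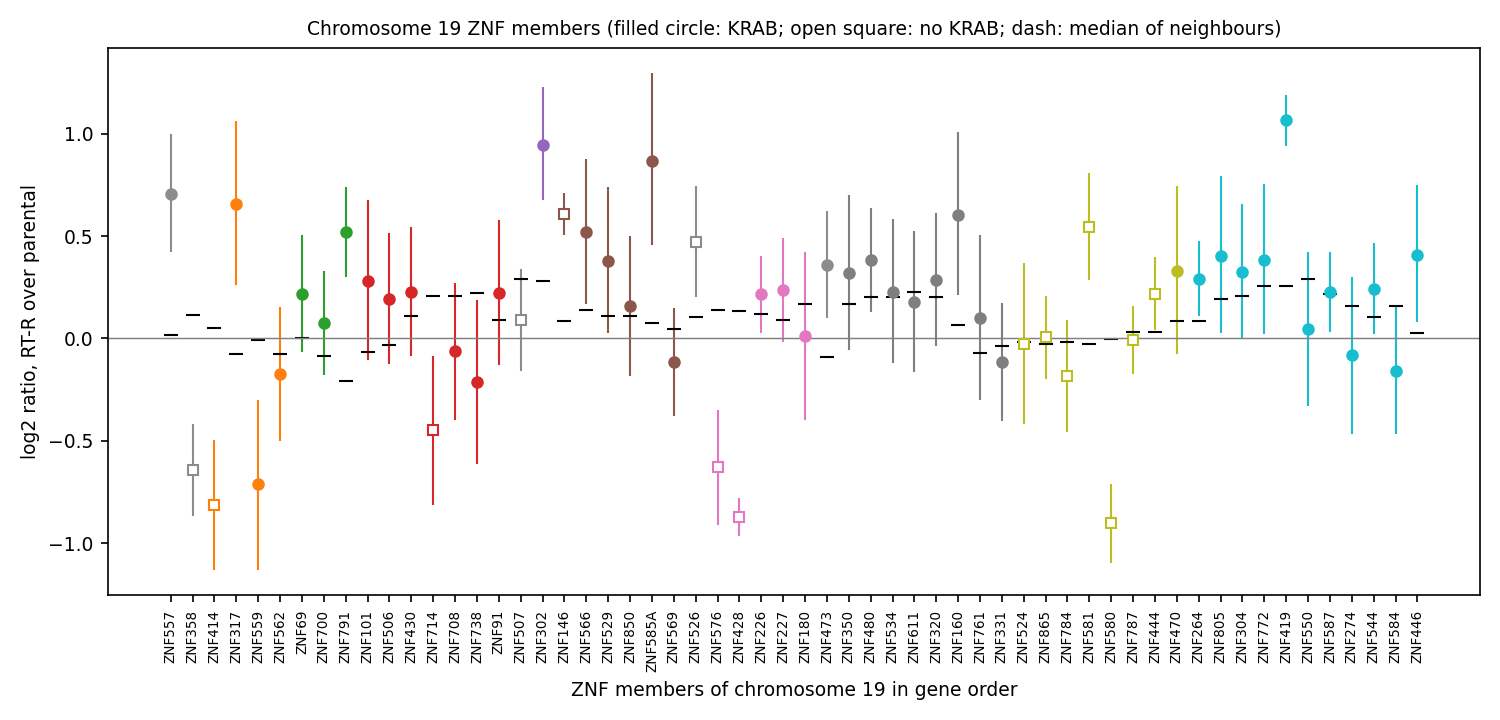
Log2 ratio of RT-R over parental for the 58 ZNF members of chromosome 19, in gene order from the short to the long arm, with vertical lines for the 95% counting interval and black dashes for the median of the measured neighbours. Colours mark the clusters and pale grey the members outside them; filled circles are KRAB genes and open squares the others. Most filled circles lie above 0, and the lowest points (ZNF580, ZNF428, ZNF414) are open squares.

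Away from chromosome 19, the members did not always share the level of their chromosome. Chromosome 7 carried 13 members, 10 of them KRAB genes, with a median log2 ratio of -0.13 and none past 1.5-fold. The 417 other measured symbols of chromosome 7 had a median of -0.40, with 17 higher and 116 lower at 1.5-fold. Of the 13 members, 11 lay above their own neighbours. ZNF277, which works with Polycomb proteins, was the highest of the 13, with 128 counts in RT-R cells and 85 in parental cells. ZNF777 was the lowest, with 301 and 382. On chromosome 16 the 13 members had a median of 0.04 with 7 above 0. The 6 KRAB members among them had a median of -0.59, and 1 of the 6 lay above its neighbours. ZNF75A, ZNF263 (132 counts in RT-R cells, 194 in parental cells) and ZNF205 (126 and 178) were past 1.5-fold lower there, and 1 of the 13 members was higher. The 394 other symbols of the chromosome had a median of 0.07, with 46 higher and 19 lower at 1.5-fold. On chromosome 10 the 9 members had a median of 0.39, with 4 KRAB members at 0.40, and the 355 other symbols had -0.08. Across the 165 members the log2 ratio and that of the neighbours had a Spearman rho of 0.28, against 0.37 over 8942 symbols of all kinds. Genes near each other share neighbours, so these values describe the libraries only.

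The number of fingers went with the ratio as well. The 41 members with 0 to 4 finger patterns had a median log2 ratio of 0.02, those with 5 to 9 (49 genes) 0.04, those with 10 to 14 (44 genes) 0.21 and those with 15 or more (29 genes) 0.33. Taken relative to their own neighbours, the medians spanned less, at 0.09, 0.05, 0.13 and 0.22 in the same order. Of the 29 genes with 15 or more patterns, 25 had a log2 ratio above 0. At 1.5-fold 8 of them were higher and 0 lower, against 9.24% and 11.1% of all symbols. ZNF462, with 33 patterns, had 316 counts in RT-R cells and 186 in parental cells, a ratio of 1.52 (1.27 to 1.84). ZNF142, with 31, had 219 and 129, also 1.52 (1.22 to 1.91). ZNF91, with 31, which represses SVA transposons, had 155 and 119, and its ratio of 1.17 had an interval including 1 (0.914 to 1.5). Of the many-fingered genes 14 were on chromosome 19, 13 of them above 0, and 15 elsewhere, 12 of them above 0. At the other end, 7 of the 41 members with few fingers were lower at 1.5-fold and 2 were higher, against 11.1% and 9.24% of all symbols. The 9 of them on chromosome 19 had a median log2 ratio of -0.21, with 4 lower and 0 higher. The 32 elsewhere had a median of 0.06, with 3 lower and 2 higher.

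Across the 163 members with a protein, the finger number and the log2 ratio had a Pearson r of 0.27 and a Spearman rho of 0.27. The rho was 0.25 among KRAB members and 0.28 among the others. Over all members, transcript length went along with finger number and with the ratio, at a rho of 0.23 and 0.17. Its rho with the ratio was 0.08 among KRAB members and 0.26 among the others. All symbols were also cut into 5 equal groups of rising length. The 8, 33, 38, 43 and 43 members in them had medians of -0.10, 0.15, 0.05, 0.18 and 0.21. All symbols in these groups had -0.14, -0.07, -0.04, -0.01 and 0.02. Members whose last 300 bases were in the highest of 5 GC content groups had a median of -0.07, and all such symbols had -0.11. The part of transcript length and GC content in the finger gradient was not tested.

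**Figure D5:**
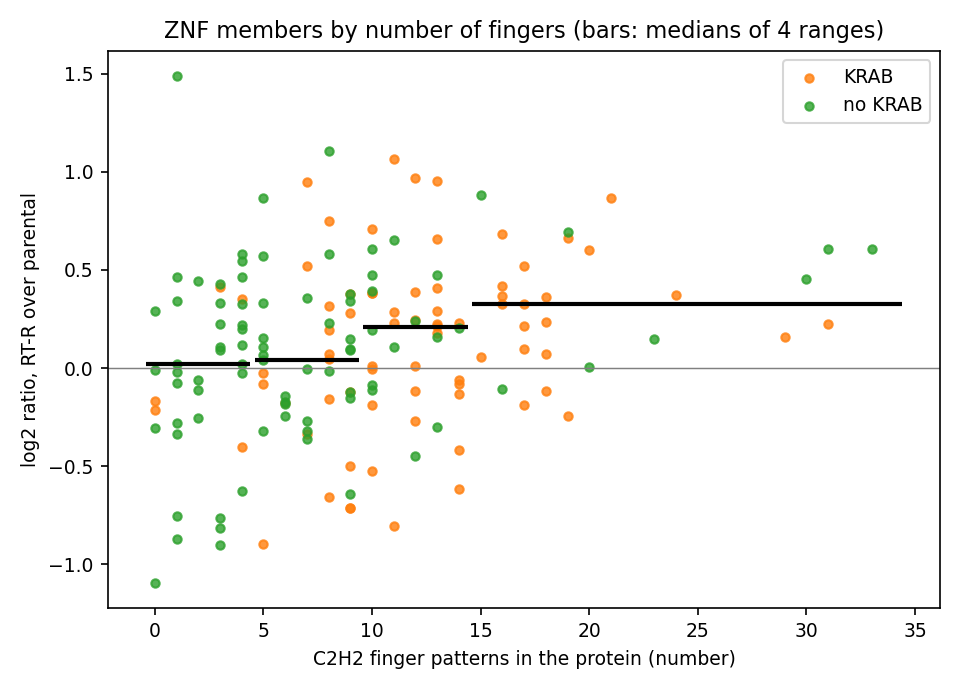
Log2 ratio of RT-R over parental for the 163 ZNF members with a translated protein, by the number of C2H2 finger patterns, with KRAB genes in orange and the others in green. Black bars are the medians of the ranges 0 to 4, 5 to 9, 10 to 14 and 15 or more patterns, at 0.02, 0.04, 0.21 and 0.33.

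Of 35 ZNF genes listed for a described role, 27 were members. They had a median log2 ratio of 0.11 with 16 above 0. At 1.5-fold 3 were higher (ZNF384, ZNF146 and ZNF592) and 2 lower (ZNF185 and ZNF263), against 9.24% and 11.1% of all symbols. Of the breast cancer genes, ZNF217, amplified on 20q13 in breast tumours, had 337 counts in RT-R cells and 258 in parental cells, a ratio of 1.17 (0.993 to 1.38). ZNF703, a luminal breast cancer oncogene, had 1073 and 1188 and was 1.23-fold lower (1.14 to 1.34), short of the rule. ZNF281, a factor tied to epithelial-mesenchymal transition, had 543 counts in RT-R cells against 387 in parental cells, a ratio of 1.26 (1.10 to 1.44). ZNF148, its close relative, had 460 and 406, with an interval that included 1. ZNF24, a SCAN domain factor without a KRAB box, had 1046 and 679, a ratio of 1.38 (1.25 to 1.52). ZNF143, an activator of many promoters, had 166 counts in RT-R cells against 191 in parental cells, 1.28-fold lower (1.04 to 1.59). Its paralog ZNF76 had 1054 and 1181, 1.25-fold lower (1.15 to 1.36).

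Of the KRAB genes on the list, ZNF263 alone passed 1.5-fold. ZNF445, which guards imprinted regions, had 240 counts in RT-R cells and 287 in parental cells and was 1.33-fold lower (1.12 to 1.59), with neighbours at a median log2 ratio of -0.32. ZNF274, which brings SETDB1 to the ends of ZNF genes themselves, had 119 and 113, 1.06-fold lower with an interval that included 1 (0.811 to 1.38). ZNF93, a repressor of LINE-1 elements, had 36 and 37 counts and was not a member. ZNF410, an activator whose main target is the remodeller gene CHD4, had 268 counts in RT-R cells against 216 in parental cells, a ratio of 1.11 (0.926 to 1.34), and CHD4 had 2979 and 2729, a ratio of 0.979 (0.929 to 1.03).

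ZNF592, a partner of ZMYND8, had 266 counts in RT-R cells against 159 in parental cells, a ratio of 1.5 (1.23 to 1.84). ZNF687, of the same complex, had 390 and 315, and its transcript end overlaps PI4KB on the opposite strand, so its reads are uncertain. ZNF532, the remaining zinc finger protein of that complex, had 36 and 38 counts and was not a member. ZNF638, which works with the HUSH complex in silencing unintegrated viral DNA, had 653 counts in RT-R cells and 431 in parental cells, a ratio of 1.36 (1.20 to 1.54), with neighbours at -0.24. ZNF644, a partner of the G9a methyltransferase, had 394 and 276, a ratio of 1.28 (1.09 to 1.5). ZNF292, a gene mutated in neurodevelopmental disorders, had 576 and 448, a ratio of 1.15 (1.02 to 1.31), and the BTB domain gene ZNF131 had 361 and 300.

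ZNF598, ZNF622, ZNF326 and ZNF207, listed for tasks in RNA, translation or mitosis, passed neither 1.5-fold direction. The same held for 129 of all 165 members. ZNF598, the ubiquitin ligase that senses collided ribosomes, had 489 counts in RT-R cells against 346 in parental cells, a ratio of 1.27 (1.10 to 1.46). ZNF622, a maturation factor of the large ribosomal subunit, had 180 and 150, and ZNF326, which couples splicing to elongation, had 252 and 238, each with an interval that included 1. ZNF207, a kinetochore protein that binds BUB3, had 502 and 546 and was 1.21-fold lower (1.07 to 1.37). Of the listed genes under the minimum, ZNF516 had 68 counts in RT-R cells and 28 in parental cells, a ratio of 2.18 (1.38 to 3.51). ZNF346 had 38 and 33, ZNF521 had 7 and 14, ZNF365 had 6 and 1, ZNF750 had 1 and 0, and ZNF423 had 0 in both.

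Of 28 listed symbols for the co-repressors that KRAB proteins use, 27 were present in the deposited data and 24 had 200 or more counts. Their median log2 ratio was -0.10 with 7 above 0 (29.2%), against -0.05 and 45.6% for all symbols. Taken relative to their own neighbours, the median was 0.05, against -0.02 for all symbols. At 1.5-fold 1 was higher and 1 was lower, against 9.24% and 11.1% of all symbols, and none passed 2-fold. TRIM28, the direct partner of the KRAB box, had 432 counts in RT-R cells against 516 in parental cells and was 1.33-fold lower (1.17 to 1.52). SETDB1, the H3K9 methyltransferase it recruits, had 509 and 318, a ratio of 1.44 (1.25 to 1.66). Among HP1 genes, CBX3 had 5082 counts in RT-R cells against 6990 in parental cells, 1.53-fold lower (1.48 to 1.59), and CBX5 had 1011 and 922 at a ratio of 0.983. DNMT3B, a de novo DNA methyltransferase, had 332 and 172, a ratio of 1.73 (1.44 to 2.09). Under the minimum, SUV39H1, an X-linked H3K9 methyltransferase gene, had 33 counts in RT-R cells and 109 in parental cells, 3.68-fold lower (2.48 to 5.62), and DNMT3A had 119 and 61, a ratio of 1.75 (1.27 to 2.42).

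Zinc finger genes under other symbols were read against the same minimum, where 9.24% of all symbols were higher and 11.1% lower at 1.5-fold. The 22 ZBTB genes, which pair fingers with a BTB domain, had a median log2 ratio of 0.11, with 4 higher and 4 lower at 1.5-fold. The 13 KLF and SP genes, activators and repressors of GC-rich promoters, had 0.19, with 5 higher and 3 lower. The 8 ZSCAN and ZKSCAN genes had -0.08, with 1 higher and 1 lower. The 4 ZFP genes had 0.61, with 2 higher and none lower.

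The counts of 14 members are uncertain because their transcript end overlaps another measured gene or shares a nearly identical stretch with one. Besides those already given as such, they include the pair ZNF286A and ZNF286B, each with a stretch of its end matched in the other. Others are ZNF320 with ZNF468, ZNF562 with ZNF561, ZNF587 with ZNF814 and ZNF219 with ARHGEF40. The rest are ZNF276 with FANCA, ZNF646 with PRSS53, and ZNF32, ZNF337 and ZNF512B with antisense genes. Of all 14 members, ZNF337, ZNF160 and ZNF414 were past 1.5-fold. ZNF252P, ZNF271P and ZNF286B are annotated as pseudogenes in RefSeq. They had 153, 310 and 186 counts in RT-R cells against 115, 284 and 120 in parental cells. A protein could still be translated for ZNF286B, so it is counted among the 163 members with one.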

How the data were processed

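The authors deposited raw whole-number read counts per gene symbol for each library, per the file headers. The tools named in the submitters' processing notes are bedtools, Bowtie2 and bcl2fastq 2.20.0.422, with the hg19 build; which annotation was counted, whether strand was used and how reads with several matches were treated is not given in the sources used here. Paralogs can therefore share reads, and no molecular identifiers are mentioned. Each table had 25737 rows, summed to 24462 symbols; 1 member, ZNF84, had repeated rows.

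TMM scaling in edgeR 4.0.16 (R 4.3.3) made the RT-R library 1.12 times the size of the parental one. A log2 ratio is RT-R over parental, from raw counts plus 0.5 that were then scaled. Exact conditional (Clopper-Pearson) 95% intervals came from scipy 1.17.1 and cover counting error only. No test across samples exists with 1 library per line. Calculations were tested on simulated libraries. The members, the lists and the tests were chosen with earlier results of these data known.

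Genes named were those past 2-fold, the 5 with most counts, those at the minimum, the extremes of each cluster by the interval bound nearest to 1, a list with described roles and TRIM28, SETDB1, CBX5 and co-repressors past 1.5-fold; others were chosen after their values were seen, as were the motifs. Neighbours were the 15 genes with 50 or more counts on each side. Gene order and promoters came from RefSeq (GRCh38.p14), so no hg19 coordinate is printed. Proteins were translated from GENCODE release 29; fingers were counted as C, 2 to 4 residues, C, 12 residues, H, 3 to 5 residues, H, and KRAB boxes were found with a profile built from these proteins in pyhmmer 0.12.3 at an E value of 0.001. Transcript ends were called shared where at least 75 of the last 300 bases matched any part of another transcript at 95% identity (BLAST 2.17.0). Overlap was sought over the last 500 bases. Alternatives were other scalings, count minimums, thresholds, cluster gaps and bases.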

Additional observations from a re-analysis of the deposited data

How the results depend on the processing

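No paired analysis was possible because each line has 1 library, and for the same reason no library could be left out. The median log2 ratio stayed above 0 under each alternative run, from 0.07 to 0.16 for the members and from 0.12 to 0.26 for the chromosome 19 cluster members. Counts of 2-fold calls followed the minimum and the threshold, against 3 higher and 1 lower of 165 members. There were 6 and 4 of 248 symbols at a minimum of 100 counts, and 20 and 10 of 375 with 20 counts in a library. Of the 165 members 22 and 14 passed 1.5-fold, and 0 and 0 passed 4-fold. A minimum of 500 counts left 1 higher. Of all symbols with 200 or more counts, 3.02% and 2.45% passed 2-fold, and 9.24% and 11.1% passed 1.5-fold. Of all symbols under 200 counts with 20 in a library, 16.7% and 7.84% passed 2-fold. For the other settings no share of all symbols was computed. Relative to neighbours that are not ZNF symbols 4 were higher and none was lower, and relative to symbols of like transcript length 5 were higher; both bases were added after seeing the data, as was leaving out the uncertain members. The ratio of summed counts, 1.02, was 1.05 with total counts, 1.04 with the upper quartile, 1.03 with 20 counts in a library and 0.991, reversed, at a minimum of 500 counts; the cause was not tested. Relative to neighbours ZNF419 (0.81) and ZNF185 (-0.39) no longer passed the 2-fold rule and ZNF428 (-1.01) did; on the base without ZNF symbols ZNF419 (1.21) passed and ZNF428 (-0.96) did not. At the median member, counting error alone spans 0.28 on the log2 scale to either side, and less for members with more counts.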

Other observations

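ZNF symbols under the minimum were also read where a library held at least 20 counts. These 210 symbols had a median log2 ratio of 0.11, with 17 (8.10%) higher and 9 (4.29%) lower at 2-fold. All 3633 symbols in the same range had a median of 0.12, with 16.7% higher and 7.84% lower. The genes named next were chosen after their values were seen. ZNF773, the next gene to ZNF419, had 60 counts in RT-R cells against 9 in parental cells, a ratio of 5.98 (2.95 to 13.7). ZNF121, also on chromosome 19, had 44 and 6, a ratio of 6.58 (2.79 to 18.9). ZNF837 had 10 counts in RT-R cells against 37 in parental cells and was 4.13-fold lower (2.01 to 9.30). Outside the naming rule, ZNFX1, a helicase gene of antiviral defence that is no C2H2 factor, had 2702 counts in RT-R cells and 1393 in parental cells, a ratio of 1.74 (1.63 to 1.86). The antisense gene ZNF528-AS1 had 973 and 539, a ratio of 1.62 (1.46 to 1.80).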
